A study of Drosophila melanogaster with 16 samples.

Results

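The genes described here are the dpr genes and the DIP genes of *Drosophila melanogaster*, the 2 families of immunoglobulin-domain surface proteins with which fly neurons recognise their synaptic partners. They were taken from the gene table of the Release 6 assembly by symbol, as every protein-coding gene named dpr with a number or DIP with a Greek letter, which gave 21 dpr and 11 DIP genes, 32 of 13946 protein-coding genes. Chromatin came from heads of male flies of strain w1118, a white-eyed laboratory strain labelled wild type, at day 50 and at day 10 of adult life. The marks were monomethylation of histone H3 at lysine 4 (H3K4me1), a mark of enhancers and transcribed genes, and acetylation of lysine 27 (H3K27ac), a mark of active enhancers and promoters. For each mark and age there were 2 immunoprecipitated and 2 input samples, 16 in 8 groups, and all flies shared strain, sex and rearing at 25 °C.

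In the background known for these families, a Dpr protein on one neuron binds a DIP protein on another, each DIP having its own set of Dpr partners, and the pairs help neurites choose targets, form synapses and survive. Most of the genes are expressed in small, different sets of neurons. DIP-alpha binds Dpr6 and Dpr10, DIP-gamma binds Dpr11 and its relatives, and DIP-delta binds Dpr12. The founding member, dpr1, was named for the proboscis extension response to salt.

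The 4 deposited peak lists, 1 for each mark and age, were made from both replicates together. There was therefore no spread between samples and no test of age, every difference below is one between 2 lists, and read depth was unknown. The region of a gene is its body with 1000 bp added on both sides, and the level of a mark is the number of bases of the region under peaks, or that number as a percent of the region. The head holds many cell types, so fewer cells of a type and less mark per cell cannot be told apart. The lists held 41837 H3K4me1 peaks at day 50 and 43863 at day 10 on the main chromosomes, and 25432 and 26694 H3K27ac peaks.

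H3K4me1 covered less of the dpr and DIP genes at day 50. Of the 31 genes with a peak at either age, 28 had fewer bases under peaks at day 50 and 3 had more, and all families of binding partners held genes that were lower. Over all protein-coding genes with a peak, 48.0% were lower at day 50 and 51.7% higher. The median difference, day 50 minus day 10, was -2.31 percentage points of the region over these 31 genes and 0.148 over all genes. The summed length under H3K4me1 peaks was 66.6 kb at day 50 and 89.4 kb at day 10, a ratio of 0.745, against a ratio of 0.988 over all gene regions together. By a rule of at least 1.5-fold, 12 of the 31 were lower and 0 higher, where 9.99% and 13.5% of all genes were so. There was no test of these counts.

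The H3K4me1 difference was seen in long and in short genes. Long gene regions had less H3K4me1 at day 50 across the genome: of those of at least 20 kb, 76.7% were lower and 23.3% higher. Among the dpr and DIP genes of that length, 19 of 21 were lower and 2 higher, with a median of -1.56 percentage points against -1.53 in all such genes, so the size of the median difference was near the background. By at least 1.5-fold, 8 of the 21 were lower and 0 higher, against 17.5% and 5.28% of long genes. Of the 10 dpr and DIP genes with regions under 20 kb, 9 were lower and 1 higher, where 44.7% of all such genes were lower and 55.0% higher. By at least 1.5-fold, 4 of the 10 were lower and 0 higher, against 9.13% and 14.5%. The median of these 10 was -5.36 percentage points, where that of all short regions was 0.456.

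The direction of the H3K27ac difference was not the same in both families. Of 18 dpr genes with an H3K27ac peak, 16 had fewer bases under peaks at day 50 and 2 had more, and the summed length was 30.1 kb at day 50 and 59.8 kb at day 10. Of 5 DIP genes with one, 4 had more at day 50 and 1 had fewer, with 3.06 kb at day 50 and 1.04 kb at day 10. For DIP-alpha, one of the 4, none of these bases lay outside the regions of other genes. The other 6 DIP genes had no H3K27ac peak at either age. Over all genes with a peak, 28.1% were lower and 71.6% higher at day 50, and 4 of 5 DIP genes higher is near that share. All 4 have regions of at least 20 kb, though, and of all genes of that length 34.2% were higher. By at least 1.5-fold all 4 were higher, against 11.1% of genes of that length. These calls rest on few bases: 180 bp in 1 peak at day 50 for DIP-theta, and 336 and 155 bp for DIP-gamma. DIP-epsilon had more, 1688 and 410 bp. The 1 lower DIP gene, DIP-iota, had 9 bp at day 10. Of the 23 genes together, 10 were lower and 4 higher by at least 1.5-fold, against 7.81% and 22.7% of all genes. The median difference over the 23 was -0.576 percentage points and over all genes 1.73. In all genes with regions of at least 20 kb it was -0.896, and in the 15 dpr and DIP genes of that length -0.576. By this median the dpr and DIP genes were not lower than genes of like length. The contrast between the families was noticed in these values and was not tested.

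Length mattered for H3K27ac too. Of the 15 dpr and DIP genes with a peak and a region of at least 20 kb, 11 were lower and 4 higher at day 50, where 65.8% and 34.2% of all such genes were so. The share lower, 73.3%, is near that background. By at least 1.5-fold, 8 were lower and 4, all of them DIP genes, higher, against 28.8% and 11.1%. Their summed length under peaks was 0.489 of the day 10 length, and that of all long regions 0.816. Of 8 short ones with a peak, 6 were lower and 2 higher, against 23.5% and 76.2% of short genes, with a summed ratio of 0.891 against 1.18. By at least 1.5-fold, 2 were lower and 0 higher, against 5.27% and 24.2%. Leaving out dpr12, which holds the most H3K27ac, the summed ratio over all lengths was 0.566 in place of 0.545.

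**Figure D1:**
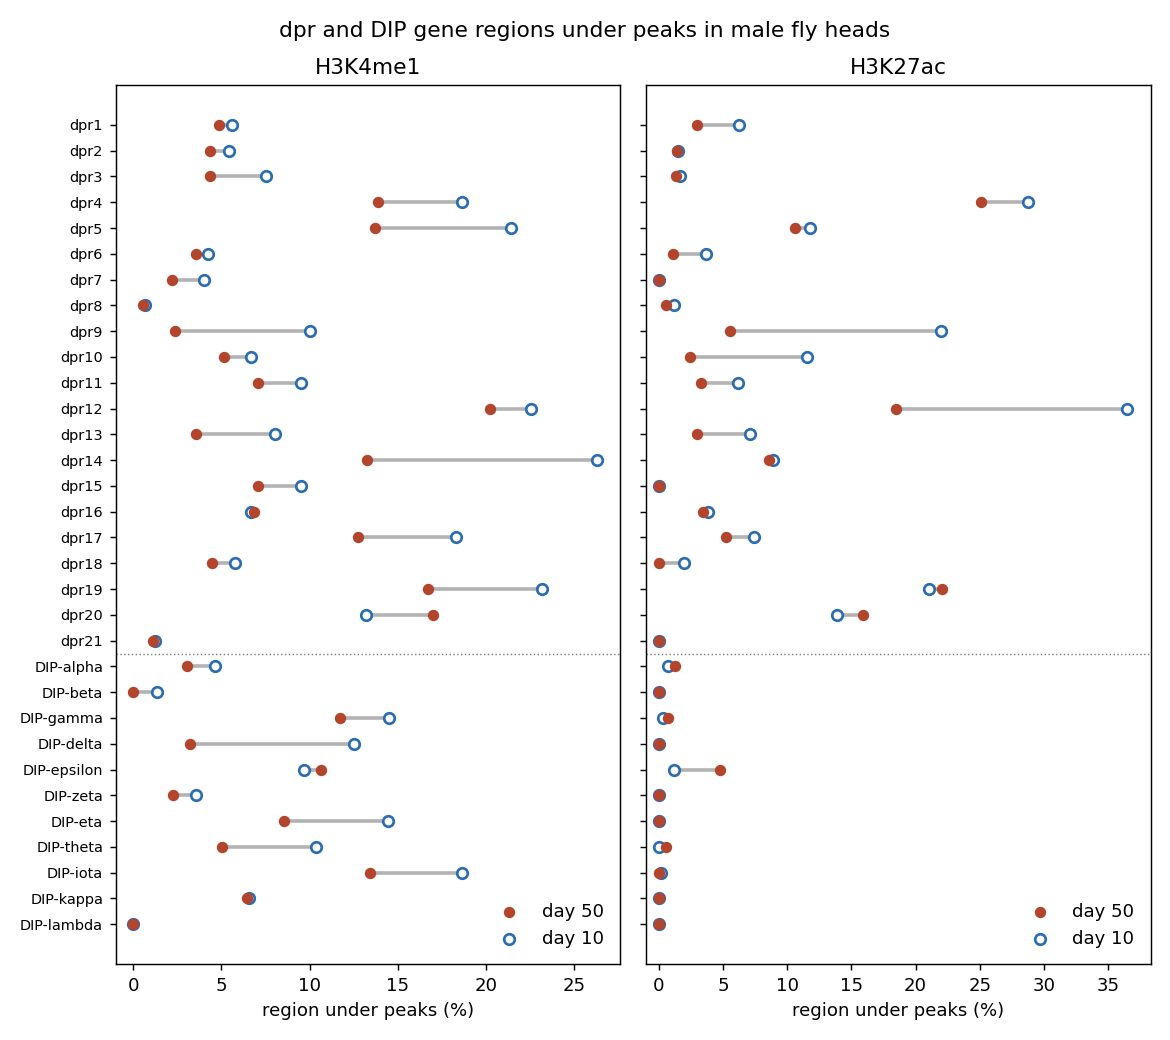
Percent of each gene region under H3K4me1 peaks (left) and H3K27ac peaks (right) at day 50 (filled) and day 10 (open), with the dpr genes above the dotted line and the DIP genes below it; a pair of points at 0 means no peak. Most H3K4me1 points lie further left at day 50, as for dpr14 (13.3% and 26.3%), while the widest H3K27ac gaps belong to dpr12 (18.4% and 36.5%) and dpr9 (5.54% and 22.0%).

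The pair DIP-delta and dpr12, whose proteins bind each other, held the largest difference of each mark in covered bases, -1.89 kb of H3K4me1 at DIP-delta and -10.5 kb of H3K27ac at dpr12. In H3K4me1 the lead was narrow, with -1.86 kb at dpr9 and -1.83 kb at DIP-theta. By ratio other genes were lower, such as dpr9 in H3K4me1 (0.235) and dpr10 in H3K27ac (0.213). The dpr12 gene (2R:5804712-5860831, Release 6) had 10.7 kb under H3K27ac peaks at day 50 and 21.2 kb at day 10, in 29 and 44 peaks. That was 18.4% and 36.5% of the region, the highest share of any of the 32 genes at day 10. Its H3K4me1 differed far less, with 11.8 kb in 33 peaks at day 50 and 13.1 kb in 30 peaks at day 10. The H3K27ac difference ran along the gene: each of 5 equal stretches of the region had fewer covered bases at day 50, with differences from -0.411 to -3.65 kb. The widest day 10 peak, 3391 bp at 2R:5846909-5850299 with a fold of 1.92 over background, was overlapped at day 50 by narrower peaks only, the widest of the whole region then being 997 bp. Of the 44 day 10 peaks, 24 were overlapped by a day 50 peak. In all regions of at least 20 kb, 4497 of 13306 day 10 H3K27ac peaks and 5056 of 18809 day 10 H3K4me1 peaks had no day 50 counterpart, which is the background for the counts of single genes. Of the 20 dpr12 peaks with none, 6 lay under an H3K4me1 peak at day 50 and 6 at day 10.

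DIP-delta (3L:5424109-5442399) had no H3K27ac peak at either age, and its H3K4me1 was 0.652 kb at day 50 and 2.54 kb at day 10. Its peaks numbered 3 and 12, and 10 of the 12 day 10 peaks had no counterpart at day 50. Of these, those at 3L:5423596-5423795 and 3L:5437960-5438157 had the highest fold, 3.34, of all H3K4me1 peaks of the 32 genes that were in the day 10 list alone. The first of these had its summit 0.425 kb outside the left gene end.

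dpr6 and dpr10, the partners of DIP-alpha, lie 8.09 kb apart on 3L. The region of dpr10 (3L:10147454-10186108) had 0.998 kb under H3K27ac peaks at day 50 and 4.68 kb at day 10, in 6 and 16 peaks. dpr6 (3L:9974651-10139360) had 1.79 kb at day 50 and 6.12 kb at day 10, in 8 and 24 peaks. Both ratios, 0.213 and 0.292, were well below 1, whereas H3K4me1 of the same regions was 2.08 and 2.72 kb at dpr10 and 5.96 and 7.06 kb at dpr6. Of the day 10 H3K27ac peaks of dpr6, 17 of 24 had no day 50 counterpart, and of those of dpr10, 12 of 16. DIP-alpha itself, on X, had more H3K27ac at day 50 (0.853 and 0.464 kb) and less H3K4me1 (2.04 and 3.08 kb). All of that H3K27ac lay in the regions of other genes too, with 0 bp outside them at either age.

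In the DIP-beta set, dpr9 (3R:15054930-15077206) differed in both marks. It had 1.35 kb under H3K27ac peaks at day 50 and 5.34 kb at day 10, and 0.571 and 2.43 kb under H3K4me1 peaks. Of its 18 day 10 H3K27ac peaks, 13 had no day 50 counterpart, and none of those 13 places carried H3K4me1 at day 50, where 5 had at day 10. One of them, at 3R:15075790-15076008, had a fold of 3.02. The large gene dpr8 had 0.815 kb of H3K27ac at day 50 and 1.63 kb at day 10, and 0.810 and 0.954 kb of H3K4me1, in a region of 142 kb. DIP-beta had no H3K27ac peak, and its H3K4me1 peaks, 0.506 kb at day 10, had no counterpart at day 50. dpr21 had H3K4me1 alone, with 1.42 kb at day 50 and 1.53 kb at day 10.

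**Figure D2:**
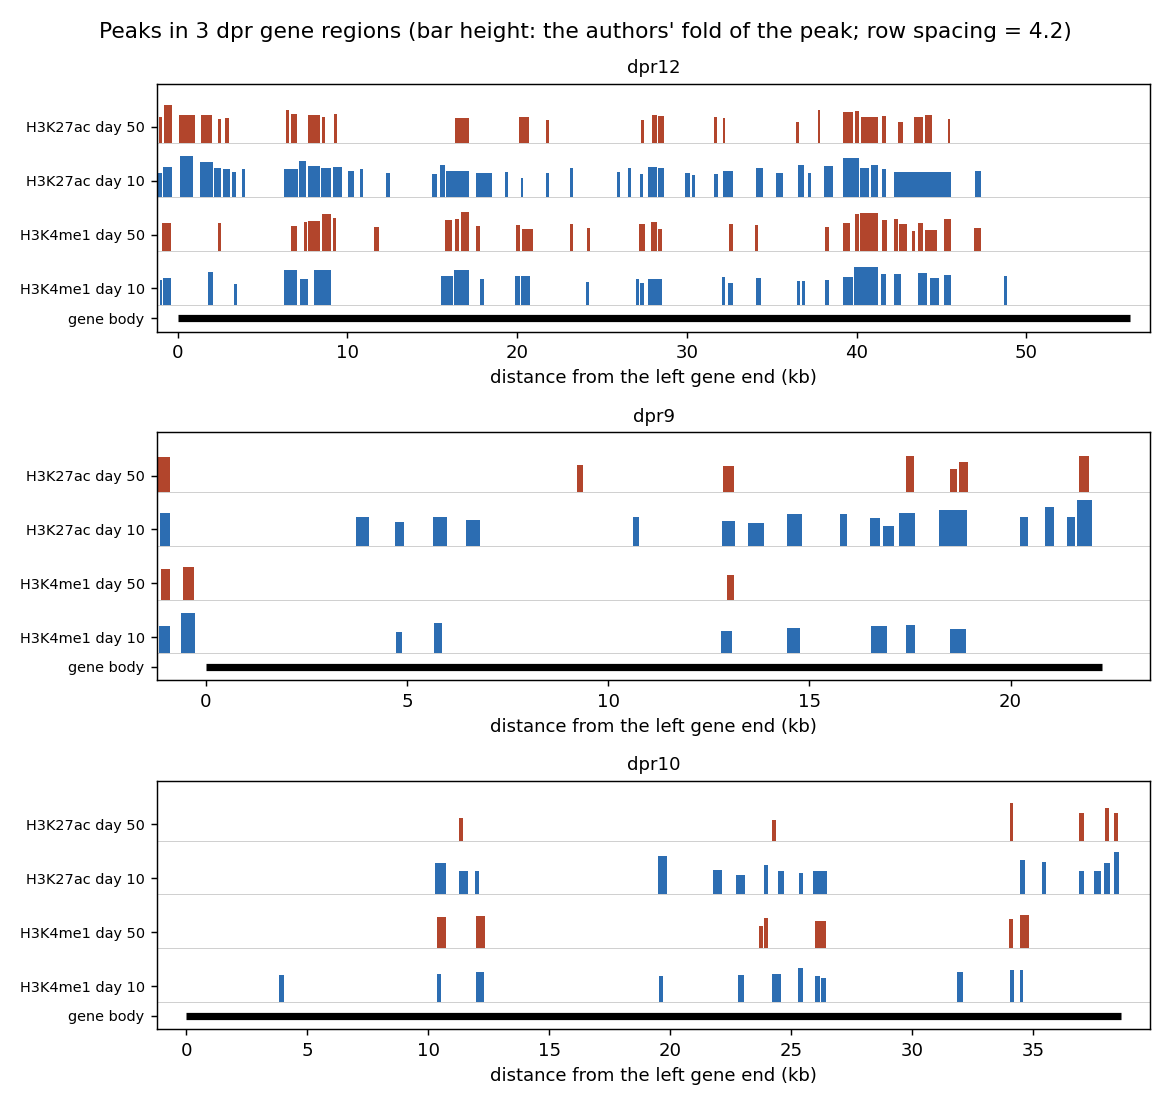
Peaks of dpr12, dpr9 and dpr10 by distance from the left gene end in kb, with a row for each mark and age; bar width is the peak's width, bar height the authors' fold, and the black line the gene body. The H3K27ac rows hold 29, 7 and 6 peaks at day 50 and 44, 18 and 16 at day 10, while the H3K4me1 rows of dpr12 hold 33 and 30.

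The set of DIP-gamma, known for the pairing of R7 photoreceptors with their target neurons through Dpr11, had a summed ratio of day 50 to day 10 of 0.778 for H3K4me1 and 0.652 for H3K27ac. At dpr11 H3K27ac was 2.16 kb at day 50 and 4.09 kb at day 10, and H3K4me1 4.70 and 6.30 kb. At dpr17 H3K27ac was 0.964 and 1.37 kb, and H3K4me1 2.37 and 3.39 kb. dpr15 had H3K4me1 alone, with 1.54 kb at day 50 and 2.07 kb at day 10. At dpr15, dpr16 and dpr17 no mark differed by 1.5-fold. dpr16 was one of the 3 genes with more H3K4me1 at day 50, by a small margin (1.447 and 1.413 kb), and its H3K27ac was 0.737 and 0.811 kb. Outside the regions of other genes its H3K4me1 was lower at day 50, with 1193 and 1250 bp. DIP-gamma carried much H3K4me1 (5.57 and 6.88 kb) and little H3K27ac (0.336 and 0.155 kb).

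The set of DIP-epsilon and DIP-zeta held the other 2 genes with more H3K4me1 at day 50. dpr20 had 1.11 kb at day 50 and 0.861 kb at day 10, and its H3K27ac was also higher (1.04 and 0.905 kb). DIP-epsilon had 3.79 and 3.45 kb of H3K4me1. Its H3K27ac was 1.69 kb in 6 peaks at day 50 and 0.410 kb in 2 peaks at day 10, the largest H3K27ac excess at day 50 among the 32 genes. Both day 10 peaks were also found at day 50. Part of that region, 34.2%, is shared with regions of 5 other genes, and outside these the H3K27ac values were 969 and 410 bp.

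Other genes of that set went the other way. dpr14, a short X-linked gene (X:7903704-7908286), carried H3K4me1 peaks on 13.3% of the region at day 50, against 26.3% at day 10, the largest difference in percentage points of that mark, -13.0. Its H3K27ac was nearly the same at both ages (0.567 and 0.588 kb), and its H3K27ac peaks were the strongest of all 32 genes, the highest with folds of 5.27 at day 50 and 4.56 at day 10. That peak lies outside the gene body and in the region of a neighbour too. At dpr13 both marks were lower at day 50, H3K4me1 at 1.23 and 2.79 kb and H3K27ac at 1.02 and 2.47 kb. dpr19 had 0.960 and 1.33 kb of H3K4me1, with H3K27ac slightly higher at day 50 (1.264 and 1.207 kb). Outside the regions of other genes that direction turned, with 0 bp of H3K27ac at day 50 and 125 bp at day 10. dpr18 had 0.381 and 0.492 kb of H3K4me1, and its H3K27ac peak of 0.171 kb at day 10 was absent at day 50. Outside the regions of other genes its H3K4me1 was slightly higher at day 50, with 152 and 147 bp. DIP-zeta had H3K4me1 alone (0.480 and 0.771 kb).

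The set of DIP-eta, DIP-theta and DIP-iota was lower in H3K4me1 for all 8 genes, with 13.9 kb at day 50 and 20.9 kb at day 10 in sum. dpr4 had the highest H3K27ac share of any of the 32 genes at day 50, 25.1%, against 28.7% at day 10, and its H3K4me1 was 1.59 and 2.14 kb. dpr5 had 1.10 and 1.71 kb of H3K4me1, and 0.846 and 0.939 kb of H3K27ac. At dpr1 H3K27ac was 1.60 and 3.39 kb, in 6 and 15 peaks, and H3K4me1 2.62 and 3.01 kb. At dpr3 the larger difference was in H3K4me1 (2.32 and 3.99 kb), with H3K27ac at 0.695 and 0.884 kb. Of these 5 dpr genes, dpr1 alone was past 1.5-fold in H3K27ac. dpr2 had 2.15 and 2.68 kb of H3K4me1, and 0.692 and 0.744 kb of H3K27ac.

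The DIP genes of this set carried H3K4me1 with almost no H3K27ac. DIP-theta had 1.73 kb of H3K4me1 at day 50 and 3.56 kb at day 10, and DIP-eta, 8.34 kb from it on 2L, 1.56 and 2.63 kb. DIP-iota had 0.882 and 1.22 kb. The only H3K27ac bases there were a peak of 0.180 kb at DIP-theta at day 50 and 9 bp of a neighbouring peak at the edge of the DIP-iota region at day 10. DIP-iota is the 1 DIP gene counted above as lower in H3K27ac, on those 9 bp alone.

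Of the genes placed in no set, DIP-kappa had nearly equal H3K4me1 at both ages (2.740 and 2.778 kb) and no H3K27ac. dpr7, on the small chromosome 4, had 0.179 and 0.330 kb of H3K4me1 and no H3K27ac. DIP-lambda, whose body of 379 kb lies near the base of 2R, had no peak of either mark at either age.

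Taking both marks, 23 genes had peaks of each. In 16 of these both marks were lower at day 50 and in 2 both were higher, and 4 had less H3K4me1 with more H3K27ac. Only dpr13 and dpr9 were lower by at least 1.5-fold in both. These joint counts were not taken over all genes, so whether they are unusual is not known. Taken singly, 48.0% of all genes with a peak were lower in H3K4me1 and 28.1% in H3K27ac. Of those with regions of at least 20 kb, 76.7% and 65.8% were lower. Across the 23 genes the differences of the marks in percent of the region had a Pearson r of 0.172 and a Spearman rho of 0.165, and without dpr12 0.268 and 0.190. These describe genes that share the same 4 lists, and genes are not replicates.

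For H3K27ac, the bases that differed lay mostly inside the genes and not at their ends. Within 1000 bp of a gene end, H3K27ac covered 12.7 kb at day 50 and 13.4 kb at day 10, summed over the 32 genes. In the rest of the gene bodies it covered 20.5 kb at day 50 and 47.5 kb at day 10, a ratio of 0.431. In all regions of at least 20 kb the corresponding ratios were 1.03 at the ends and 0.786 inside. H3K4me1 of the 32 genes was lower in both places. At the ends it covered 13.9 kb at day 50 and 17.2 kb at day 10, and inside 52.7 and 72.3 kb. The ratios were 0.807 at the ends and 0.730 inside, against 0.967 and 0.850 in all regions of at least 20 kb. The gene table gives neither strand nor exons, so which gene end is the start, and which peaks lie in exons, introns or UTRs, is not given here.

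**Figure D3:**
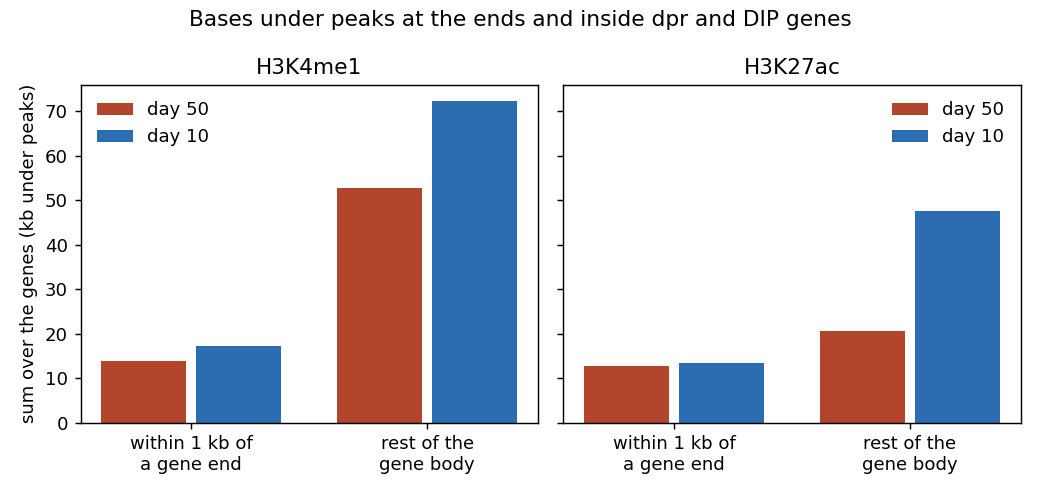
Bases under peaks summed over the 32 genes, in kb, within 1 kb of a gene end and in the rest of the gene body, at day 50 (left bar) and day 10 (right bar). The H3K27ac bars at the ends are close (12.7 and 13.4 kb), and those inside the genes are 20.5 and 47.5 kb.

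Single genes were also scored for a peak within 500 bp of a gene end. H3K27ac lay at an end of 20 genes at day 50 and 18 at day 10. All 18 had it at both ages, near the background of 7276 of 7510 genes, and DIP-alpha and DIP-theta had it at day 50 alone. H3K4me1 lay at an end of 18 genes at day 50 and 23 at day 10. It was there at day 10 alone for dpr1, dpr4, dpr13, dpr15, dpr19 and DIP-iota, which is 6 of 23, against 569 of 8088 over all genes, and at day 50 alone for dpr2. Over all protein-coding genes, 56.2% had H3K27ac at an end at day 50 and 53.9% at day 10, and 59.1% and 58.0% had H3K4me1.

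Peaks of the dpr and DIP genes were weak ones. The median fold of their H3K27ac peaks was 2.16 at day 50 and 2.15 at day 10, where the whole lists had 2.61 and 2.49. That of their H3K4me1 peaks was 2.22 and 2.20, where the lists had 2.58 and 2.53. Peaks in all gene regions of at least 20 kb were also below the lists, with 2.45 and 2.37 for H3K27ac and 2.49 and 2.45 for H3K4me1. The day 10 list was therefore cut into 4 classes of equal size by fold, and the share of peaks found again at day 50 was taken in each. Of the 188 day 10 H3K27ac peaks of the 32 genes, 86 were overlapped by a day 50 peak, 45.7% (exact 95% interval 38.5 to 53.2), against 66.2% in regions of at least 20 kb and 77.4% in all gene regions. In the weakest class the share was 33.3% (23.6 to 44.3) for the 32 genes and 49.1% in long regions. In the second class it was 48.2% against 60.1%, and in the third 58.1% against 74.9%, and there the long-region values lay inside the intervals (34.7 to 62.0 and 39.1 to 75.5). The strongest class held only 14 of these peaks, of which 12 were found again, 85.7% (57.2 to 98.2), against 94.8% in long regions.

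For H3K4me1, 175 of 300 day 10 peaks were overlapped at day 50, 58.3% (52.5 to 64.0), against 73.1% in long regions and 81.1% in all gene regions. From the weakest class to the third the shares were 52.3%, 59.0% and 69.6%, where long regions had 54.8%, 67.0% and 81.8%. The long-region value lay inside the interval in the first and second class, and just outside in the third (55.9 to 81.2). Of the 12 peaks in the strongest class 8 were found again, 66.7% (34.9 to 90.1), and there the long-region value of 95.8% also lay outside the interval. In the other direction, 80.4% of the 112 day 50 H3K27ac peaks and 77.3% of the 229 day 50 H3K4me1 peaks were overlapped by a day 10 peak, against 80.0% and 83.8% in all gene regions. The intervals cover counting error only, and peaks of 1 gene are not independent. The part of depth in these differences was not tested.

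**Figure D4:**
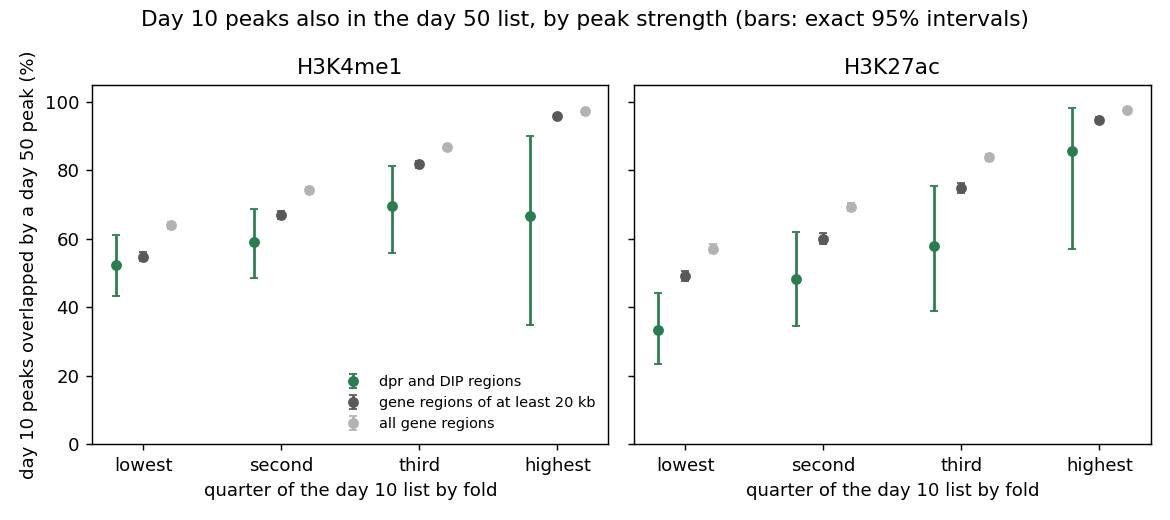
Percent of day 10 peaks overlapped by a day 50 peak, by 4 classes of fold of the day 10 list from weak to strong, for the 32 gene regions (green), gene regions of at least 20 kb (dark grey) and all gene regions (light grey), with exact 95% intervals. The green points lie below the others in every class, with wide intervals in the strongest one, where they stand for 12 H3K4me1 and 14 H3K27ac peaks.

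The day 10 H3K27ac peaks that had no day 50 counterpart differed from the others in place and in H3K4me1. Of these 102, 5 had their summit within 1 kb of a gene end, 4.90%, against 32 of the 86 found at both ages, 37.2%. Their median width was 211 bp, and that of the others 338.5 bp. Place and width were not taken over all gene regions, so whether these contrasts are particular to the 32 genes is not known. At day 10, 42.2% of the 102 peaks lay under an H3K4me1 peak (32.4 to 52.3), against 69.8% of the 86 others (58.9 to 79.2). In all gene regions the shares were 55.7% and 71.5%. At day 50, 61.6% of the H3K27ac peaks of the 32 genes overlapped an H3K4me1 peak (51.9 to 70.6), and at day 10 54.8% (47.4 to 62.0), where all gene regions had 68.1% and 67.9%.

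Regions of other protein-coding genes overlap some of these regions, by up to 59.1% at dpr19. Of the day 10 H3K27ac peaks, 178 of 188 lay in no region of another protein-coding gene, and of the day 10 H3K4me1 peaks 275 of 300. On bases outside other regions, H3K27ac covered 29.8 kb at day 50 and 58.3 kb at day 10, a ratio of 0.512, and H3K4me1 60.9 and 83.1 kb, a ratio of 0.733. The 32 regions did not overlap each other.

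The beat and side genes and a list of other recognition genes were also mostly lower. The median region of the beat and side genes was 43.2 kb and that of the other recognition genes 42.6 kb, and 76.7% of all genes with regions of at least 20 kb were lower in H3K4me1 and 65.8% in H3K27ac. The beat and side genes, another pair of immunoglobulin families whose proteins bind each other across neurons and muscle, had less H3K4me1 at day 50 for 21 of 22 genes and less H3K27ac for 18 of 22. Their H3K27ac sum was 33.3 kb at day 50 and 64.4 kb at day 10, with side-VI at 6.75% and 14.6% of its region. Of 35 other genes of recognition and adhesion, 30 had less H3K4me1 and 29 less H3K27ac, for example Dscam4 with H3K27ac at 16.0% and 27.7%. Of 7 genes related to the dpr and DIP genes by family or by binding, 3 were lower and 4 higher in H3K4me1. Of the 6 with an H3K27ac peak 4 were lower and 2 higher. Among these, the H3K4me1 share of Ama was 26.1% at day 50 and 15.4% at day 10. The H3K27ac share of cDIP, whose secreted product binds both Dpr and DIP proteins, was 9.55% at day 50 and 14.4% at day 10. These lists were compared by counts only, and no difference between them and the dpr and DIP genes was tested.

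Marker genes of cell types also differed between the lists. Over all genes, 48.0% were lower and 51.7% higher in H3K4me1 at day 50, and 28.1% and 71.6% in H3K27ac. In regions of at least 20 kb 76.7% were lower in H3K4me1 and 65.8% in H3K27ac, and in shorter ones 44.7% and 23.5%. The marker lists differ in length too. Regions reach 39.8 kb in the neuronal list and 44.8 kb in the photoreceptor list, but 11.1 kb in the glial and 18.3 kb in the fat body list. The part of length in the marker counts was not tested. Of 9 neuronal genes 7 had less H3K4me1 at day 50 (31.3 kb at day 50 and 37.9 kb at day 10 in sum), and 6 less H3K27ac (19.4 and 24.4 kb). Gad1 counts among these 6 on almost no bases, with H3K27ac on 0.00600% of its region at day 50 and 0.0180% at day 10. All 9 carried H3K4me1 at both ages, and VGlut had no H3K27ac. Of 6 photoreceptor genes 4 had less H3K4me1 (5.65 and 7.76 kb), with ninaC and chp at 0 at day 50. In H3K27ac, 2 were lower and 2 higher (7.48 and 9.47 kb), with ninaC and chp at 0 at both ages and ninaE at 0 at day 10. Of 5 glial genes 2 were lower and 3 higher in H3K4me1 (9.14 and 8.90 kb), and 4 were higher in H3K27ac (10.2 and 8.12 kb), with repo at 0. All 5 fat body genes were higher in H3K4me1 (14.3 and 8.52 kb), and 4 of 5 in H3K27ac (9.96 and 7.16 kb), the second count being near the share over all genes. Of 7 testis and germline genes, 6 had an H3K4me1 peak at day 50 and 5 at day 10 (14.3 and 14.5 kb). An H3K27ac peak was at 5 of them at each age (12.0 and 14.7 kb). The longest, bol, with a region of 38.8 kb, had 21.4% of it under H3K27ac peaks at day 50 and 28.5% at day 10. Of all 13946 protein-coding genes, 10652 had an H3K4me1 peak at either age and 9171 an H3K27ac peak. Whether heads use these 7 genes was not tested. bam, a germline gene, had none of either. The part of cell makeup in the differences of the dpr and DIP genes was not tested.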

How the data were processed

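Chromatin was digested with micrococcal nuclease, briefly sonicated and precipitated, per the labels' protocols. Per the submitters' processing notes, MACS2 2.1.1, STAR 2.5.3a, deepTools, FastQC and Trim Galore were used with the build BDGP6, with no role or order stated; no settings were stated either. The authors deposited 4 peak lists, with both replicates pooled per the peak names. Each gives the authors' fold enrichment (a ratio), -log10 q and summit offset per peak. In the deposited lists, peaks were at least 147 bp wide with -log10 q of at least 1.30. Deeper libraries pass a q threshold at more places, and nuclease digestion favours accessible chromatin.

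Gene positions came from RefSeq, Release 6. Covered bases were counted per region with Python 3.11.15, pandas 2.3.3 and NumPy 2.4.6, and the counting was tested on simulated lists. A gene with bases at 1 age only counts as past 1.5-fold. Peaks were shared from 1 base of overlap. Intervals are exact (Clopper-Pearson, SciPy 1.17.1). Both gene ends replaced the planned start sites, as strand is unknown. All 32 genes may be named. Of each other list, up to 3 with the largest differences in percent covered may be, and marker genes at or near 0. Members, lists, partner sets, the split at 20 kb and the classes of fold were chosen with earlier results of these data known. No sequence was used here. Alternatives were other peak thresholds, equal numbers of peaks, other flanks, windows, folds and overlaps and, chosen after seeing the data, leaving out dpr12 and counting bases outside other genes.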

Additional observations from a re-analysis of the deposited data

How the results depend on the processing

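The number of genes lower at day 50 was 19 to 28 of those with a peak for H3K4me1 and 12 to 17 for H3K27ac under the alternatives run, with 28 and 17 as reported. With equal numbers of peaks at both ages, 23 of 31 genes were lower and 8 higher in H3K4me1, and 15 of 23 and 8 in H3K27ac. With the upper 50% of each list, 19 of 27 were lower and 8 higher in H3K4me1, and 12 of 18 and 6 in H3K27ac. The shares over all genes were not taken under the alternatives. With at least 2-fold in place of 1.5-fold, 5 genes in place of 12 were lower in H3K4me1. With -log10 q of at least 5, 44.2% of day 10 H3K4me1 peaks were overlapped at day 50, and 37.5% of day 50 H3K27ac peaks overlapped H3K4me1. With the upper 50% of each list these shares were 32.3% and 14.3%, and the genes with a peak at an end at day 50 numbered 8 for H3K4me1 and 13 for H3K27ac. With 50% of a peak as the overlap, 50.3% of day 10 H3K4me1 peaks were shared. The share of day 10 H3K27ac peaks was 39.4% to 49.5% under the alternatives run, with 45.7% as reported. The cause of these shifts was not tested. Both median differences stayed negative under every alternative run for them. No paired analysis was possible because each list pools both replicates, and for the same reason no replicate could be left out. Depth is unknown, so how far it limits the lists cannot be given.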
